A study of Rattus norvegicus with 6 samples.

Results

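The comparison described here set olmesartan against lisinopril in brain capillaries of stroke-prone spontaneously hypertensive rats (SHRSP), using the 4 arrays titled ARB 1, ARB 2, ACEI (called ACEI 1 here) and ACEI 2 out of the 6 arrays of the series. The remaining 2 arrays are SHRSP controls, and their levels are given beside the results as a background. The description shared by all 6 samples puts the rats at 6 weeks of age and names 1% NaCl, olmesartan at 4 mg/kg body weight by mouth each day, and lisinopril at 6 mg/kg body weight each day. The sources used here do not say whether every group received the salt or the controls alone did, or how long treatment lasted. ARB stands for angiotensin receptor blocker (olmesartan) and ACEI for angiotensin-converting enzyme inhibitor (lisinopril). The drugs differ in kind and in dose, and each was given at 1 dose, so no dose-matched comparison exists. All groups share the SHRSP strain, and no array of a normotensive strain was used here. Nothing in the sources says whether an array holds 1 animal or a pool, so the p-values below measure the spread between these arrays, which may be technical.

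Total RNA from the capillaries was hybridised to the Affymetrix RG_U34A array. A probe set is meant to report 1 transcript, but the annotation names several genes for 308 of them. The members are all 8740 probe sets of the array that are not among its 59 control probe sets. Of these, 5244 entered the test after the 40% with the lowest mean over the 4 arrays had been left out. A low probe set could therefore pass through the group in which it was high. The platform annotation named 1 gene for 4286 of the probe sets tested. These stand for 3174 genes, each read from its probe set with the highest mean. No sequence is printed, because no sequence of the probes was at hand and the measurements bear on transcript levels rather than on a site.

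Renin and angiotensin-converting enzyme turn angiotensinogen into angiotensin II, a peptide that constricts vessels and acts through the type 1 and type 2 receptors. Lisinopril blocks the converting enzyme, which also breaks down bradykinin, whereas olmesartan blocks the type 1 receptor and leaves the peptide and the type 2 receptor free. Brain capillaries consist of endothelial cells joined by tight junctions, with pericytes and the end-feet of astrocytes on their outer face, and preparations of them can carry other brain cells and blood cells.

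The arrays of the same drug were more like each other than the arrays of different drugs, and the control arrays were unlike each other. Across the probe sets tested, log2 values correlated at 0.91 between the ACEI arrays, 0.87 between the ARB arrays and 0.65 to 0.76 between an ARB and an ACEI array. Control 1 correlated with the ACEI arrays at 0.92 to 0.94 and with the ARB arrays at 0.68 to 0.71. Control 2 correlated at 0.78 with both ACEI arrays, at 0.76 to 0.79 with the ARB arrays and at 0.76 with control 1, so by correlation it lay with neither drug. Control probe sets also differed between arrays. The probe set for the 3' end of beta-actin (Actb) read 24581 on control 1, 22165 and 25420 on the ACEI arrays, but 2329 on control 2 and 5257 and 5662 on the ARB arrays. The 5S ribosomal RNA probe set read 455 and 919 with ACEI and 5813 and 5451 with ARB, beside 106 and 1880 on the controls. For Actb, the 3' reading divided by the 5' reading, a sign of how far transcripts were degraded or copied short, was 1.04 and 1.35 with ACEI, 2.05 and 1.65 with ARB, and 1.10 and 3.15 on the controls. For Gapdh, the same ratio was 0.93 and 1.59 with ACEI, 1.48 and 1.42 with ARB, and 0.97 and 7.31 on the controls. The ARB arrays thus lay between the ACEI arrays for Gapdh, and only the Actb ratio set the drugs apart. Probe sets for transcripts that rats do not have reached 168 and 91.6 with ACEI and 545 and 523 with ARB. The share of the summed intensity in the 10 brightest probe sets was 3.08% and 3.11% with ACEI and 11.3% and 12.2% with ARB. ACEI 1 and control 1 carry an earlier run day and another array lot than the other 4 arrays. The part of these array differences in the gene differences below was not tested.

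**Figure D1:**
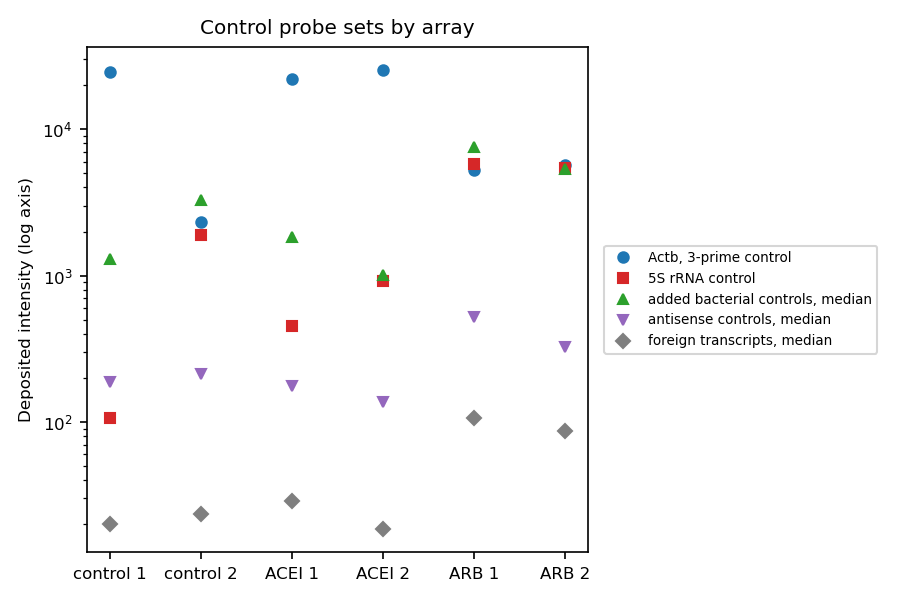
Deposited intensity (log axis) of 5 kinds of control probe set on each of the 6 arrays, with each point the value or median on 1 array. The Actb point lies at 22165 or above on control 1 and both ACEI arrays and at 5662 or below on control 2 and both ARB arrays, while the 5S ribosomal RNA points of the ARB arrays lie above those of the other arrays.

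The olmesartan and lisinopril arrays differed at 493 of 5244 probe sets (9.4%) at an adjusted p under 0.05 in limma. Olmesartan was higher at 298 of them (5.68%) and lower at 195 (3.72%). Among named genes, the liver enzymes Akr1d1 and Cyp2c11 and the protease inhibitor Cst3 stood among the largest higher differences, and galectin-9 (Lgals9), the glycolytic enzyme Aldoa and myelin basic protein (Mbp) had the largest lower ones. Without adjustment, 1159 probe sets were higher and 594 lower at a p under 0.05 (33.4% in all, 22.1% higher and 11.3% lower). A difference is given throughout as the ARB mean minus the ACEI mean of log2(intensity + 90), and the added 90 understates the change of dim probe sets. Both arrays of a group lay beyond both of the other, with means at least 2-fold apart, at 1861 probe sets (35.5%), 1231 higher and 630 lower. The median difference over all probe sets tested was 0.22, and 58.4% of the differences lay above 0. The called probe sets include both dim and bright transcripts. Those called higher had median intensities of 173 and 106 with ACEI and 863 and 969 with ARB, and those called lower had medians of 2253 and 2478 with ACEI and 356 and 317 with ARB. The lower group lay at or below the brightest foreign-transcript control of the same array at 103 of the 298 and at 107 of the 195, so many of these folds rest on a low value near the background of the array. In bulk tissue, fewer cells of a type and less RNA per cell cannot be told apart.

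The call of 493 probe sets rests on the spread within 2 pairs of arrays and on information shared between probe sets. No probe set was called by limma when all 6 arrays shared the estimate of spread (975 higher and 344 lower at an unadjusted p under 0.05). None was called without moderation of the variances (545 and 409 unadjusted), or with ACEI 1 left out, which leaves the later run day alone (1325 and 548 unadjusted). None was called without ACEI 2 or without ARB 2 either, and 149 were called without ARB 1. A replicate block gave 767 calls. An exact permutation test of a single gene over 2 against 2 arrays cannot go below 0.333 (two-sided).

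The balance between higher and lower calls changed with the scaling of the arrays. Quantile normalization gave 122 higher and 250 lower calls, cyclic loess 109 and 229, and median centring 160 and 596. Of the 298 called higher, 297 kept their sign after quantile normalization and 114 were still called. Of the 195 called lower, 195 kept it and 179 were still called. Counts of higher against lower calls therefore depend on the scaling. The smallest called differences were 1.4955 (higher) and -1.5468 (lower), so the selection nearly fixed that signs would be kept. Nothing is read from the kept signs.

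The control arrays were split more widely at the probe sets called lower than at those called higher. Among the 195 probe sets called lower with olmesartan, the median was 2405 on control 1 and 357 on control 2, and control 2 was higher than control 1 at 11 of them. Among the 298 called higher, the control medians were 181 and 252. Control 2 was higher than control 1 at 214 of these (71.8%), against 50.0% of all probe sets tested. Across the probe sets tested, the drug difference and control 2 minus control 1 correlated at 0.41, which is a description across probe sets that share arrays and depth. At most probe sets called lower with olmesartan, control 2 thus lay below control 1, and at most of those called higher it lay above.

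**Figure D2:**
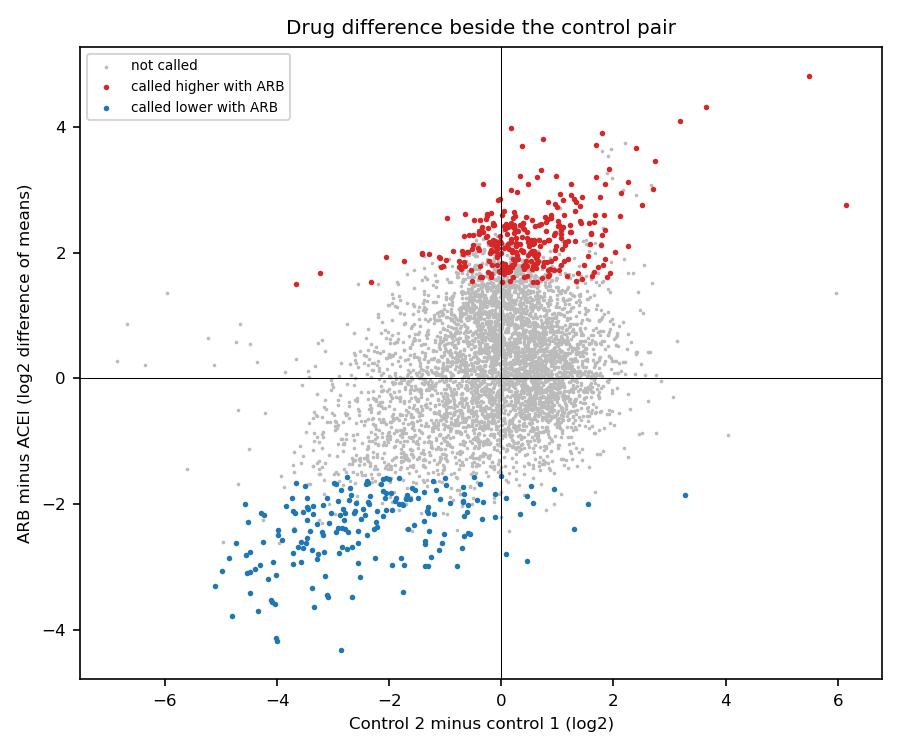
Each point is 1 of 5244 probe sets, with control 2 minus control 1 on the horizontal axis and the ARB minus ACEI difference of means on the vertical axis, both on the log2 scale. Probe sets called lower with ARB lie mostly to the left of 0, where control 2 was below control 1, and those called higher lie around and to the right of 0.

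At the level of genes, 158 of 3174 (4.98%) were called higher with olmesartan and 75 (2.36%) lower, the median difference of all genes was 0.24, and 60.1% lay above 0. The 12 genes with the largest higher differences include enzymes best known from the liver, secreted and signalling proteins, and receptors and channels. Akr1d1, the steroid reductase that acts in bile acid synthesis, read 550.5 and 162 with ACEI, 5647 and 5391 with ARB and 358 and 660.2 on the controls. That is a difference of 3.80 (SE 0.51, n = 2 arrays per group, limma adjusted p = 0.021), or 14-fold. Cyp2c11, a cytochrome P450 known as the main male-specific form of rat liver, read 124 and 15.8 with ACEI and 2361 and 1469.5 with ARB (difference 3.70, SE 0.49, limma adjusted p = 0.02). Both ACEI values of Cyp2c11 lie under the brightest foreign-transcript control of their arrays, and so do those of Meox2, Or5a3, Fgd4 and Kcnh5. For all 12 genes both ARB arrays lay above both ACEI arrays, beside 64% of all genes whose groups did not overlap in either direction. That share pools both directions, and 1313 of the 3174 genes had both ARB arrays above both ACEI arrays. The groups did not overlap at any called probe set, so choosing the 12 among called genes fixed this outcome. Nothing is read from it.

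Cst3 encodes cystatin C, a secreted inhibitor of cysteine proteases made widely in the brain. It read 15636 and 16036 with ACEI, 141237 and 181866 with ARB and 10819.7 and 41225 on the controls. Its difference was 3.33 (SE 0.37, limma adjusted p = 0.019), and it was 2.37 after quantile normalization. A second probe set of Cst3 read 34628 and 37725 with ACEI and 92082 and 89102 with ARB, a smaller difference of 1.32 that did not pass (adjusted p = 0.061). The higher reading with ARB was thus shared by both Cst3 probe sets, while its size was not.

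Renbp encodes the renin-binding protein, an epimerase of amino sugars that can bind renin. Its brightest probe set read 249 and 53.1 with ACEI and 1748 and 2188 with ARB, a difference of 3.22 (SE 0.50, limma adjusted p = 0.022). The other probe sets gave 1.19 (adjusted p = 0.078) and -0.43 (adjusted p = 0.46). The sign for Renbp therefore differs between probe sets of the gene, and only the brightest passed the test.

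Meox2, a homeobox transcription factor of mesoderm and vessels, read 11.2 and 11.8 with ACEI, 3.2 and 27 on the controls and 718 and 1005 with ARB (difference 3.21, SE 0.38, adjusted p = 0.019). Prrc2c had the second largest difference, 3.71, with 3910.5 and 588 with ACEI and 23087 and 19942 with ARB (SE 0.78, adjusted p = 0.038). The ACEI arrays differed several-fold from each other for Prrc2c, as they did for Or8g20b (596 and 55.4). Eif5, a translation initiation factor, read 285 and 227 with ACEI and 2643 and 3049 with ARB, a difference of 3.09. Another probe set of Eif5 gave -0.01 (SE 0.58, limma adjusted p = 0.99) with overlapping groups, so the difference was limited to 1 probe set.

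The olfactory receptor genes Or5a3 and Or8g20b had differences of 3.09 and 3.0. Fgd4, an activator of the small GTPase Cdc42, had 2.96, and Kcnh5, a voltage-gated potassium channel, had 2.93. Chrna7, the alpha-7 subunit of the nicotinic acetylcholine receptor, read 115 and 95.3 with ACEI and 1487 and 1232 with ARB (difference 2.89, adjusted p = 0.02), and its other probe set gave 1.75 (adjusted p = 0.11).

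The 12 genes with the largest lower differences have varied roles. Lgals9, the sugar-binding protein galectin-9, read 9741 and 11187 with ACEI and 745 and 317 with ARB (difference -4.17, SE 0.46, limma adjusted p = 0.019). Its controls read 10575 and 576, with control 1 among the ACEI values and control 2 among the ARB values. Another probe set of Lgals9 gave -0.41 (adjusted p = 0.46). Aldoa, an aldolase of glycolysis, read 8307 and 6832 with ACEI, 680.5 and 159.7 with ARB and 7447 and 374 on the controls (difference -4.12, SE 0.57, adjusted p = 0.021). The Aldoa controls were split in the same way as those of Lgals9.

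Mbp, the myelin basic protein of oligodendrocytes, fell from 9124 and 7592 with ACEI to 626 and 669 with ARB (difference -3.51, SE 0.37, adjusted p = 0.019), beside controls at 5492 and 234. Serpinh1, a chaperone of collagen, had a difference of -3.48. Tpm3, a tropomyosin, had -3.33 by its brightest probe set, but 2.29 by another (adjusted p = 0.03). The Tpm3 probe sets passed the test in opposite directions.

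Rhoa, a small GTPase that controls actin, read 3212 and 4037 with ACEI and 235 and 347 with ARB, a difference of -3.29 (adjusted p = 0.019). Rab7a, a GTPase of late endosomes, read 1191 and 1985 with ACEI and 87.7 and 89.4 with ARB, a difference of -3.19. Cav1, the scaffold of caveolae in endothelium, read 2300.1 and 3077 with ACEI, 292 and 173 with ARB and 2918 and 94.4 on the controls, a difference of -3.12 (SE 0.40, adjusted p = 0.02). All of these were low on control 2 as well. Sptan1, a spectrin of the membrane skeleton, had -3.15, and Csnk2b, the regulatory subunit of casein kinase 2, had -2.98. Cyba, the p22phox subunit of NADPH oxidase, an enzyme that angiotensin II is known to activate in vessels, read 2778 and 5737 with ACEI and 418 and 433 with ARB, below its controls at 3095 and 1199.7 (difference -2.99, SE 0.45, adjusted p = 0.022). Both ARB values of Serpinh1, Rhoa, Rab7a, Cav1, Sptan1, Csnk2b and Cyba lie under the brightest foreign-transcript control of their arrays.

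**Figure D3:**
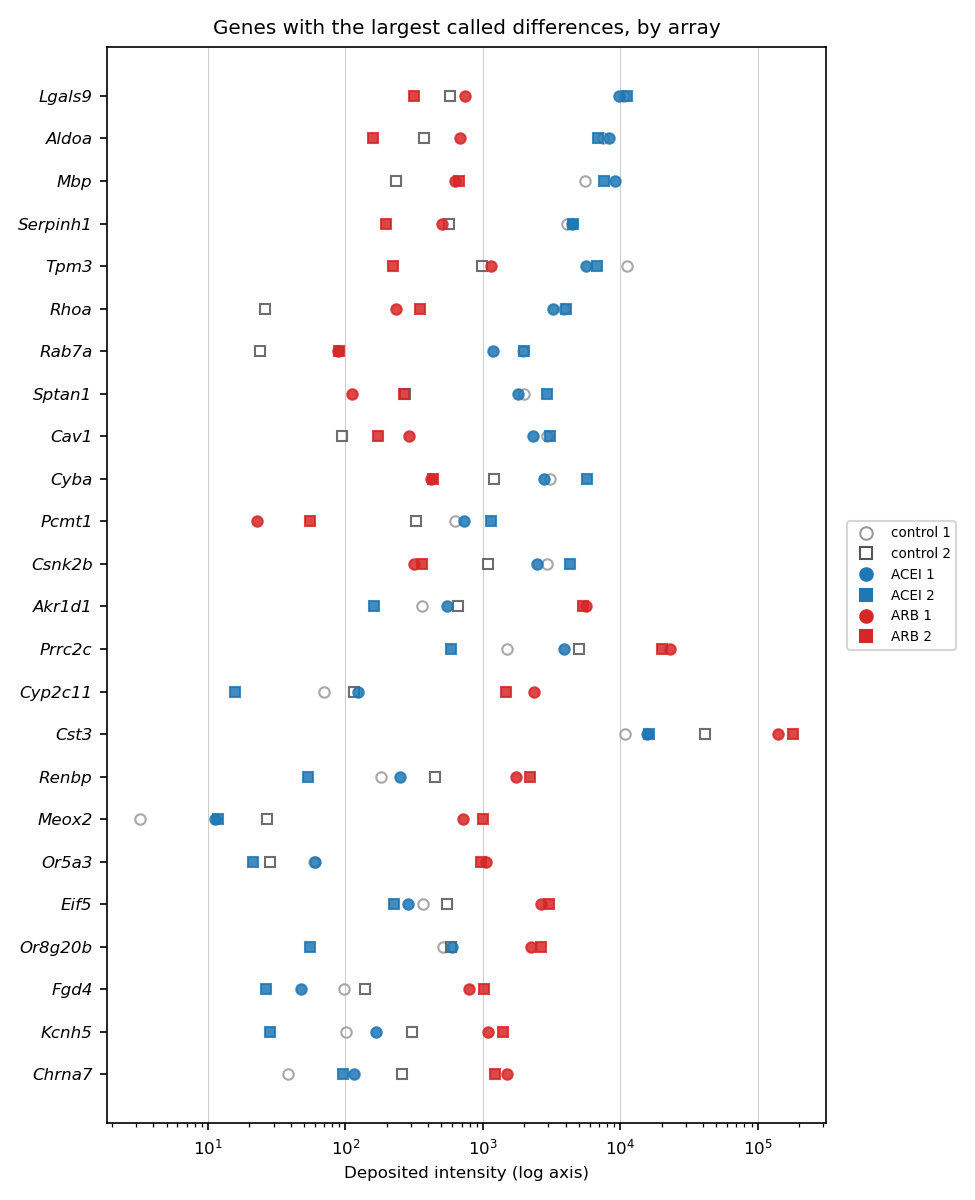
Deposited intensity (log axis) of the 12 genes with the largest called lower and the 12 with the largest called higher differences, with 1 point per array and the controls as open symbols. In every row, as at every called probe set, both ARB points lie beyond both ACEI points. Control 2 lies far below control 1 for most of the genes lower with ARB.

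In a description chosen after the values were seen, the controls lay within 2-fold of each other (after adding 90) for 124 of the 158 genes called higher and 13 of the 75 called lower. By probe set, they did so at 71.5% of those called higher, 15.4% of those called lower and 65.8% of all tested. Genes called higher were mostly dim with ACEI and could pass the filter through the ARB arrays alone, so nothing is read from their count. Pcmt1, an enzyme that repairs damaged aspartyl residues, read 628 and 326 on the controls, 730.0 and 1152 with ACEI and 22.8 and 55.4 with ARB (difference -2.98, SE 0.41, adjusted p = 0.021). Acadm, an enzyme of fatty acid oxidation, read 2687 and 1621, 2034 and 3271 and 615 and 154 in the same order, a difference of -2.69. Eef2, the elongation factor that moves the ribosome along the message, read 16558 and 10969.8, 14190.4 and 15661 and 4908 and 2679.7, a difference of -2.01. For these probe sets both ARB arrays lay below both controls and both ACEI arrays. Esrra, a nuclear receptor of energy metabolism (-1.98), Ciao1, which serves iron-sulfur protein assembly (-2.51), Prickle2 (-2.24) and Coa3, which serves cytochrome oxidase assembly (-1.97), belong to the same subset. The closeness of the controls belongs to these probe sets, not to the genes. The other 3 probe sets of Eef2 read 5792 and 359.7, 7312 and 414 and 15522 and 3597 on the controls, and in each of them at least 1 ARB array lay above control 2. The other probe set of Ciao1 read 915 and 69.8 on the controls and 526 and 82.4 with ARB. Both ARB values of Pcmt1, Ciao1, Prickle2, Esrra and Coa3 lie under the brightest foreign-transcript control of their arrays.

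Myl9, the regulatory light chain of smooth muscle myosin, is another member of that subset. It read 1712 and 2372 on the controls, 6937 and 8922 with ACEI and 938 and 1017 with ARB (difference -2.90, SE 0.37, adjusted p = 0.02). Its other probe set read 3534 and 9044 on the controls, 2920.1 and 3938 with ACEI and 4440.5 and 4648 with ARB, a difference of 0.41 (adjusted p = 0.48). The Myl9 difference was therefore limited to 1 of its probe sets.

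Probe sets of the same gene give a check that the choice of the brightest one does not. Called higher probe sets formed 89 pairs with another probe set of the same gene, so a probe set can count more than once. In 72 pairs the other probe set had the same sign, and in 12 of these it was also called. Of all probe sets tested, 58.4% lay above 0 and 5.68% were called higher. Called lower probe sets formed 189 pairs, of which 160 shared the sign and, among these, 34 shared the call. Of all probe sets tested, 3.72% were called lower.

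The angiotensin system is where the drugs act, and none of its 9 measured genes passed the test, against 7.34% of all genes. Of the 9, 6 lay higher with ARB and 3 lower, with a median difference of 1.20 (1.01 after quantile normalization and 0.61 after median centring). Both ACEI values of Agtr1a, Agtr1b, Lnpep and Cma1 lie under the filter cut of 293.3, so these genes passed through the ARB arrays. Nothing is therefore read from the median of this list. Agt, the angiotensinogen precursor made by astrocytes in the brain, read 3244 and 4824 with ACEI, 1603 and 1567 with ARB and 2669 and 1682 on the controls. Both ARB values of Agt lay below both ACEI values, a difference of -1.27 (95% interval -2.20 to -0.34, adjusted p = 0.076). Ace, the converting enzyme that lisinopril blocks, read 7690.4 and 3123 with ACEI, 4869 and 5364 with ARB and 9110.3 and 1346 on the controls. The groups of Ace overlapped, and the difference of 0.06 has a 95% interval of -1.13 to 1.24, so a change of up to about 2-fold in either direction was not detectable here.

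Agtr1a, the main type 1 receptor that olmesartan blocks, read 272 and 40.3 with ACEI and 562 and 689.5 with ARB (difference 1.72, interval 0.43 to 3.0, adjusted p = 0.079). Its controls, 241 and 261, lay by the higher ACEI array. Agtr1b, the other type 1 receptor gene of rodents, read 78.2 and 25 with ACEI and 111 and 979.5 with ARB, and its probe set belongs to a class that can share sequence within a gene family. Both probe sets of Agtr2, the type 2 receptor gene, were left out as dim, with no array above 173. Lnpep, the aminopeptidase that binds angiotensin IV, had a difference of 1.64 (adjusted p = 0.063), and Cma1, a mast cell chymase that can form angiotensin II, had 1.60 (adjusted p = 0.051). Anpep, an aminopeptidase of pericytes that trims angiotensin III, had 1.20 by its brightest probe set (adjusted p = 0.14) and -2.62 by another (adjusted p = 0.022), so its direction depends on the probe set.

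Among the kinins and other vasoactive peptides, 10 of 15 measured genes lay higher with ARB and 1 was called, against 4.98% of all genes called higher. Kng2, a kininogen from which kinins are cut, read 70.6 and 50.3 with ACEI, 561 and 589 with ARB and 215 and 369 on the controls (difference 2.15, SE 0.37, limma adjusted p = 0.024). Both ACEI values lay below both controls and both ARB values above them. The ACEI values lie under the brightest foreign-transcript control, and the ARB values little above theirs (545 and 523). The ACEI values also lie under the filter cut of 293.3, so Kng2 passed through the ARB arrays. Bdkrb1, the inducible bradykinin B1 receptor, had a difference of 1.34 (interval 0.20 to 2.47, adjusted p = 0.1), while the B2 receptor Bdkrb2 was left out as dim. Nppc, the C-type natriuretic peptide of endothelium, read 212 and 161 with ACEI and 489 and 718 with ARB. Its difference of 1.31 did not pass (adjusted p = 0.071). It too passed the filter through the ARB arrays, and its ARB 1 value lies under the brightest foreign-transcript control. The list's median difference was 0.56, and it was -0.03 after median centring.

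Nos3 and Edn1, which encode makers of signals for vessel tone in endothelium, lay lower with ARB by their brightest probe sets without passing the test, while Nppc lay higher. Nos3, the endothelial nitric oxide synthase, read 1379 and 1965 with ACEI and 629 and 599.7 with ARB, beside controls at 2068 and 262 (difference -1.30, interval -2.21 to -0.39, adjusted p = 0.07). Its other probe sets also had differences below 0, from -1.74 (adjusted p = 0.046) to -0.07 (adjusted p = 0.95). Edn1, the precursor of the constrictor endothelin-1, read 1722 and 2651 with ACEI and 524 and 1212 with ARB, a difference of -1.32 (interval -2.48 to -0.15, adjusted p = 0.11). Both genes were lowest on control 2.

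Alox15, Icam1, Acta2 and Spp1 lay below both controls on all 4 drug arrays, by the probe set read for each gene. Alox15, a lipoxygenase, read 5332 and 8055 on the controls, 500.2 and 369 with ACEI and 642 and 251 with ARB. Icam1, an adhesion molecule for leukocytes, read 5542 and 5525, 1706 and 2742 and 1925 and 2093 in the same order. Acta2, the smooth muscle actin of pericytes and arterioles, read 19511 and 23119.6, 9605 and 7199.7 and 8712 and 8764. The drug groups overlapped for all 3, with differences of -0.06 (95% interval -1.19 to 1.08), -0.10 (-1.06 to 0.85) and 0.07 (-0.83 to 0.97). These intervals allow a difference of about 2-fold between the drugs, so they do not show that the drugs act alike. The order against the controls did not hold for other probe sets. A second Icam1 probe set read 2136 and 286 on the controls, 483 and 538 with ACEI and 808 and 171 with ARB, and control 2 lay below all 4 drug arrays in both other Acta2 probe sets (2881 and 906, and 5584 and 488, on the controls). Spp1, the secreted protein osteopontin, read 3875 and 4673 on the controls, 287 and 115 with ACEI and 317 and 272 with ARB, and was left out of the test as dim on the drug arrays.

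Hmox1, the stress-induced heme oxygenase, read 3417 and 2236 on the controls, 1547 and 1737 with ACEI and 1829.8 and 1152 with ARB (difference -0.16, interval -1.12 to 0.79). A dimmer probe set of Hmox1 fell from 579 and 648 with ACEI to 70 and 83.2 with ARB (difference -2.08, adjusted p = 0.025), and control 2 read 44.5 there. Slc2a1, the glucose transporter of the blood-brain barrier, read 34416 and 34653 with ACEI and 27457 and 37476 with ARB (difference -0.11, interval -1.01 to 0.80). Another Slc2a1 probe set read 14630.3 and 24417 and 5105 and 4511 and passed the test as lower (difference -1.96, adjusted p = 0.038). The overlap of the drug groups at Hmox1 and Slc2a1 thus holds for 1 probe set of each. Ccl2, a chemokine for monocytes, had a difference of 0.11 (interval -1.14 to 1.36) with overlapping groups.

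**Figure D4:**
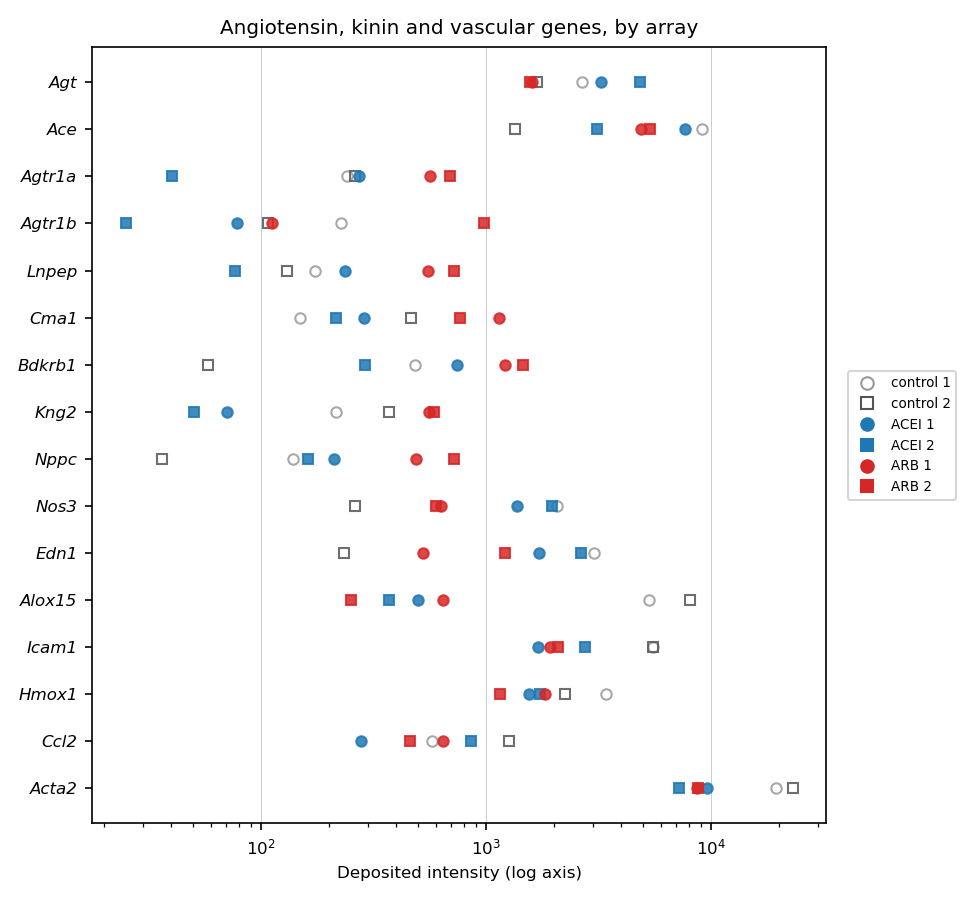
Deposited intensity (log axis) of 16 genes of the angiotensin system, the kinins and the vessel wall, with 1 point per array and the controls as open symbols. Kng2 is the gene among them that passed the test, and the Alox15, Icam1 and Acta2 points of both drugs overlap below the controls.

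Eicosanoids are lipid signals made from arachidonic acid, and 1 of 17 measured genes was called, against 7.34% of all genes. Cyp4a1, which belongs to the family that makes the constrictor 20-HETE, read 113 and 66.9 with ACEI, 372 and 650.2 with ARB and 209.6 and 219.9 on the controls (difference 1.71, SE 0.42, limma adjusted p = 0.04995). Both ACEI values and the ARB 1 value of Cyp4a1 lie under the brightest foreign-transcript control of their arrays. Its p lay just under the threshold, and after quantile normalization its adjusted p was 0.12. Pla2g2a, a secreted phospholipase (1.99, adjusted p = 0.063), and Ptgfr, the prostaglandin F receptor (1.75, adjusted p = 0.057), lay higher, and Alox5ap, which leukotriene synthesis needs, lay lower (-1.68, adjusted p = 0.051).

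The 14 endothelial markers that passed the filter read above 0 on all 4 arrays, but so did the measured members of every other list. Foreign-transcript controls also read above 0, up to 545 and 523 on the ARB arrays, so this does not test the labelled source. The organic anion transporter Slco1a4, a marker of barrier endothelium, read 24227 and 26528 with ACEI and 29915 and 31108 with ARB. Of these markers, 4 lay higher with ARB and 10 lower, with a median of -0.65 (-1.10 after quantile normalization), and 2 were called lower, against 2.36% of all genes. Pecam1, the adhesion molecule CD31, fell from 2728 and 5564 with ACEI to 553 and 317 with ARB (difference -2.96, SE 0.49, limma adjusted p = 0.022), with controls at 5538 and 194. Icam2, another endothelial adhesion molecule, fell from 894 and 1253 to 208 and 257 (difference -1.84, SE 0.39, adjusted p = 0.038), and its controls, 1109 and 1019, lay with ACEI. Control 2 was low for Pecam1 and not for Icam2, and both ARB values of Icam2 lie under the brightest foreign-transcript control. Over the list, control 2 lay below control 1 by a median of -2.31. The summed intensity of the markers, which its brightest members set, was 85386 and 84423 with ACEI and 73367 and 83427 with ARB.

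Other markers of the endothelium did not pass. Vwf, the clotting factor stored in endothelium, read 305 and 282 with ACEI and 272 and 477 with ARB (difference 0.24, interval -0.71 to 1.19), and its sign turned after quantile normalization (-0.36), cyclic loess and median centring. Flt1, a receptor for vascular endothelial growth factor, had a difference of -1.99 (adjusted p = 0.14), with ARB arrays at 1245 and 132.

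Transporters and junction proteins of the barrier lay lower for 15 of 20 measured genes, with a median of -0.46. Of the 20, 1 was called higher and 1 lower, against 4.98% and 2.36% of all genes. Slc16a1, the monocarboxylate transporter that carries lactate and ketone bodies, fell from 7636 and 7724 with ACEI to 2200.3 and 2562 with ARB (difference -1.66, SE 0.37, limma adjusted p = 0.041), and another probe set gave -0.47 (adjusted p = 0.51). Slc28a2, a nucleoside transporter, rose from 122 and 126 to 548 and 865 (difference 1.87, SE 0.39, adjusted p = 0.038). Neither was called after quantile normalization (adjusted p = 0.054 and 0.086). Slc7a5, the large neutral amino acid transporter, read 12032 and 18037 with ACEI and 4303 and 5269 with ARB (difference -1.61, adjusted p = 0.052).

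Pericyte and smooth muscle markers had no common direction. Of 13 measured, 8 lay higher and 5 lower, with a median of 0.13 (-0.46 after median centring), and 1, Myl9, was called lower, against 2.36% of all genes. Cald1 and Cnn1, both regulators of smooth muscle contraction, had differences of -1.28 and 1.25 and did not pass (adjusted p = 0.13 and 0.21).

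Some markers of other brain cells, such as Glul and Apoe, read far above the brightest foreign-transcript control on every array, so the preparations were not free of such RNA. Among 11 astrocyte markers, 5 lay higher and 6 lower, and 2 were called lower, against 2.36% of all genes. Glul, the glutamine synthetase of astrocytes, fell from 18136 and 20991 with ACEI to 4865 and 5758 with ARB (difference -1.86, SE 0.37, limma adjusted p = 0.032), and its controls, 12774 and 17553, lay above both ARB values. Aldoc, the aldolase of astrocytes, fell from 6322 and 14198 to 1529 and 1021 (difference -2.84, SE 0.50, adjusted p = 0.026). The other probe sets of Glul and Aldoc had differences below 0 too. Apoe, the lipid carrier that astrocytes secrete, lay the other way, with 20654 and 27666 under ACEI and 65282 and 74677 under ARB (difference 1.54, adjusted p = 0.051).

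Oligodendrocyte markers lay lower for 8 of 10 measured genes, with a median of -0.59 (-0.51 after quantile normalization), and 1, Mbp, was called lower, against 2.36% of all genes. Cnp, a myelin enzyme, read 1823 and 3108 with ACEI and 786 and 153 with ARB (difference -2.42, adjusted p = 0.059), and Mog, a myelin surface protein, read 1381 and 1481 and 439.5 and 686 (difference -1.25, adjusted p = 0.079). The summed intensity of the list was 60502 and 45223 with ACEI and 66576 and 64458 with ARB. Its brightest member, Enpp2, an enzyme that makes lysophosphatidic acid, read 33742 and 18786 with ACEI and 54054 and 51641 with ARB.

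None of 33 measured neuronal markers was called, against 7.34% of all genes. Of these, 24 lay higher with ARB, with a median of 0.57 that was 0.28 after quantile normalization and -0.01 after median centring. Their summed intensity was 41090 and 45852 with ACEI and 55244 and 61988 with ARB. Vamp1 and Cplx1, proteins of synaptic vesicle release, had the largest differences, 1.65 and 1.50 (adjusted p = 0.11 and 0.07).

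None of 14 measured microglia and macrophage markers was called, against 7.34% of all genes, and 11 lay lower with ARB, with a median of -0.64 (-0.85 after quantile normalization). C1qb, a chain of complement C1q, read 5138 and 15963 with ACEI and 2639 and 3065 with ARB (difference -1.64, adjusted p = 0.096), and another probe set gave -2.86 (adjusted p = 0.032). Lyz2, the lysozyme of macrophages, read 8579.9 and 13721 and 4561 and 4550.2 (difference -1.24, adjusted p = 0.086). For both genes the ARB arrays lay below the ACEI arrays and below the controls, which read 12181 and 13245 and 16584 and 13171.

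Of 11 blood cell markers measured, 6 lay higher and 5 lower, and 1 was called higher, against 4.98% of all genes. S100a8 and S100a9, calcium-binding proteins of neutrophils, read 962 and 1586 and 1144 and 3158 on the ACEI arrays, 396 and 79.6 and 482 and 792 on the ARB arrays and 2686 and 2679 and 4805 and 5309.6 on the controls. Both lay lower on the drug arrays than on the controls and lowest with ARB, and their drug differences of -2.21 and -1.50 did not pass (adjusted p = 0.055 and 0.11). Alas2, the first enzyme of heme synthesis in red cells, read 2940.5 and 4309.7 with ACEI, 2247 and 679.6 with ARB and 10011 and 9087 on the controls (adjusted p = 0.13). Defa5, a defensin, rose from 163 and 125 to 817 and 766 (difference 1.92, SE 0.37, limma adjusted p = 0.03). Slc4a1, the anion exchanger of red cells, had a difference of 1.34, on the other side from Alas2. The median of the list was 0.27, and it was -0.42 after quantile normalization, -0.01 after cyclic loess and -0.32 after median centring.

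Of 16 plasma protein genes measured, 14 lay higher with ARB, with a median of 1.07 (0.52 after quantile normalization). Of the 16, 3 were called higher, against 4.98% of all genes. At least Alb and Apob among them passed the filter through the ARB arrays, so nothing is read from the counts or the median. Ttr, the thyroid hormone carrier made by choroid plexus and liver, rose from 38252 and 34632 with ACEI to 202386 and 201474 with ARB (difference 2.47, SE 0.36, limma adjusted p = 0.021), with controls at 30927 and 92148. Its other probe set read 12495 and 28036 and 194512 and 217986 (difference 3.45, adjusted p = 0.021). After quantile normalization the difference of the brightest Ttr probe set was 0.43 (adjusted p = 0.49). Its call and its size therefore depend on the scaling.

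Alb, serum albumin, rose from 145 and 10.7 to 649 and 594 (difference 2.21, SE 0.49, adjusted p = 0.041), and Apob, the apolipoprotein of low density lipoprotein, from 227 and 167 to 939 and 1372 (difference 2.10, SE 0.39, adjusted p = 0.03). Both are products of the liver, and the ACEI values of Alb lie under the brightest foreign-transcript control. The ACEI values of Alb and Apob lie under the filter cut of 293.3, so both genes passed through the ARB arrays. After quantile normalization the limma adjusted p was 0.057 for Alb, which lost its call, and 0.049 for Apob. Crp, C-reactive protein, read 5504 and 444 with ACEI and 24382 and 19244 with ARB (adjusted p = 0.059), but its probe set is of a class that can share sequence with other transcripts, so the gene behind it is uncertain. Of the 10 choroid plexus and ependyma markers measured, 6 lay higher and 4 lower, and 1, Ttr, was called higher, against 4.98% of all genes. Enpp2 (1.07), Foxj1 (0.95) and Igfbp2 (0.86) lay on the same side as Ttr without passing, and Kl and Aqp1 on the other. Kl, the ageing-related protein klotho, read 5725 and 2564 with ACEI and 1102 and 1794 with ARB (difference -1.39, adjusted p = 0.11), and Aqp1, a water channel of the choroid plexus, read 2791 and 1379.8 and 851 and 744 (difference -1.22, adjusted p = 0.11).

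In the inflammation and leukocyte adhesion list, 12 of 28 measured genes lay higher and 16 lower, and 1 was called lower, against 2.36% of all genes. Nfkbia, the inhibitor that holds NF-kappa-B in the cytoplasm, fell from 4454 and 7632 with ACEI to 628 and 987 with ARB (difference -2.75, SE 0.44, limma adjusted p = 0.022), with controls at 12353 and 468. Another probe set gave -1.77 (adjusted p = 0.058). Stat3 and Cebpd, transcription factors of the acute phase, lay higher (1.62 and 1.56, adjusted p = 0.072 and 0.085). Ccl5, a chemokine for T cells, read 60.4 and 2183 with ACEI, so its difference of -1.52 rests on 1 array.

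Extracellular matrix and protease genes held 3 called higher and 1 called lower of 38 measured, against 4.98% and 2.36% of all genes. Beside Cst3, Lama1, a laminin chain of basement membranes, rose from 216 and 163 to 879 and 1437 (difference 2.13, SE 0.41, limma adjusted p = 0.03). Mmp12, the elastase of macrophages, rose from 102 and 4 to 526 and 669.8 (difference 2.35, SE 0.46, adjusted p = 0.032), but both ACEI values and the ARB 1 value lie under the brightest foreign-transcript control of their arrays (545 on ARB 1). Serpinh1 was the called lower member. The median of the list was 0.38, and it was -0.21 after median centring.

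Enzymes of oxidative stress lay lower for 20 of 31 measured genes, with a median of -0.29 (-0.21 after quantile normalization), and 3 were called lower, against 2.36% of all genes. Beside Cyba, these were Gpx4, the peroxidase of membrane lipids, and Gstp1, a glutathione transferase. Gpx4 fell from 11682 and 13743 with ACEI to 3864 and 4525 with ARB (difference -1.58, SE 0.37, limma adjusted p = 0.046). Gstp1 fell from 14023 and 19132 to 4670.0 and 4549 (difference -1.81, SE 0.38, adjusted p = 0.038), and its other probe set fell too (-2.44, adjusted p = 0.025). The controls of Gpx4 read 8588 and 2369 and those of Gstp1 15301 and 5821, with control 2 nearer to the ARB arrays in both.

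Of 18 glycolysis genes measured, 3 were called lower, namely Aldoa, Aldoc and Slc16a1, against 2.36% of all genes, and the median of -0.15 was 0.02 after quantile normalization. Slc2a3, the glucose transporter of neurons, read 520.0 and 239.9 with ACEI and 1206 and 1647 with ARB (difference 1.74, adjusted p = 0.054). Of 32 oxidative phosphorylation genes, 1 was called in each direction, against 4.98% of all genes higher and 2.36% lower. Cox6a2, a muscle form of a cytochrome oxidase subunit, was called higher (1.66, adjusted p = 0.045), and Vdac1, the channel of the outer mitochondrial membrane, was called lower (-2.45, adjusted p = 0.032). Both ARB values of Vdac1 lie under the brightest foreign-transcript control of their arrays. The median of that list was -0.24, and it was 0.03 after quantile normalization. Ribosomal protein genes lay lower for 26 of 36 measured, with a median of -0.35, while the called one (4.98% of all genes were called higher), Rpl17, rose from 604 and 669.5 to 2402 and 2862 (difference 1.90, SE 0.37, adjusted p = 0.031). Rps15 lay higher by its brightest probe set (1.76) and lower by another (-1.25), so it has no common direction.

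Among 27 immediate early genes, 19 lay higher and 1 was called higher, against 4.98% of all genes, with a median of 0.30 that was -0.29 after median centring. Fosl2, a partner of Jun, rose from 163 and 69.2 to 538 and 836 (difference 1.93, SE 0.43, limma adjusted p = 0.042), and another probe set gave 0.73 (adjusted p = 0.31). Both ACEI values and the ARB 1 value of Fosl2 also lie under the brightest foreign-transcript control. Klf4, a transcription factor of quiescent endothelium, read 6227 and 5876 with ACEI, 11510.5 and 12662 with ARB and 9272 and 15703 on the controls (difference 0.99, adjusted p = 0.11). Gadd45a, a gene of DNA damage and growth arrest, lay higher in all 4 of its probe sets, with 535 and 687 and 1598 and 2215 in the brightest (difference 1.50, adjusted p = 0.055). None of the Gadd45a probe sets passed the test.

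Of 25 angiogenic factors and receptors, 13 lay higher and 12 lower, with a median of 0.05 that was -0.15 after quantile normalization, and 1 was called lower, against 2.36% of all genes. Igf1r, the receptor of insulin-like growth factor 1, fell from 2261 and 2569 with ACEI to 226 and 232 with ARB (difference -2.97, SE 0.36, limma adjusted p = 0.019), but another probe set gave 0.63 (adjusted p = 0.35). Igfbp3, which binds that growth factor, had 1.60 (adjusted p = 0.064). Of 18 cell cycle genes, 1 was called in each direction, against 4.98% of all genes higher and 2.36% lower. Ccne1, the cyclin that starts DNA synthesis, was called higher (1.73, adjusted p = 0.042), and Cdk5, a kinase of neurons, was called lower (-2.07, adjusted p = 0.03). Both ARB values of the called Igf1r and Cdk5 probe sets lie under the brightest foreign-transcript control of their arrays. Of 22 heat shock and folding genes, 15 lay lower, with a median of -0.34, and 1, Serpinh1, was called lower, against 2.36% of all genes.

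**Figure D5:**
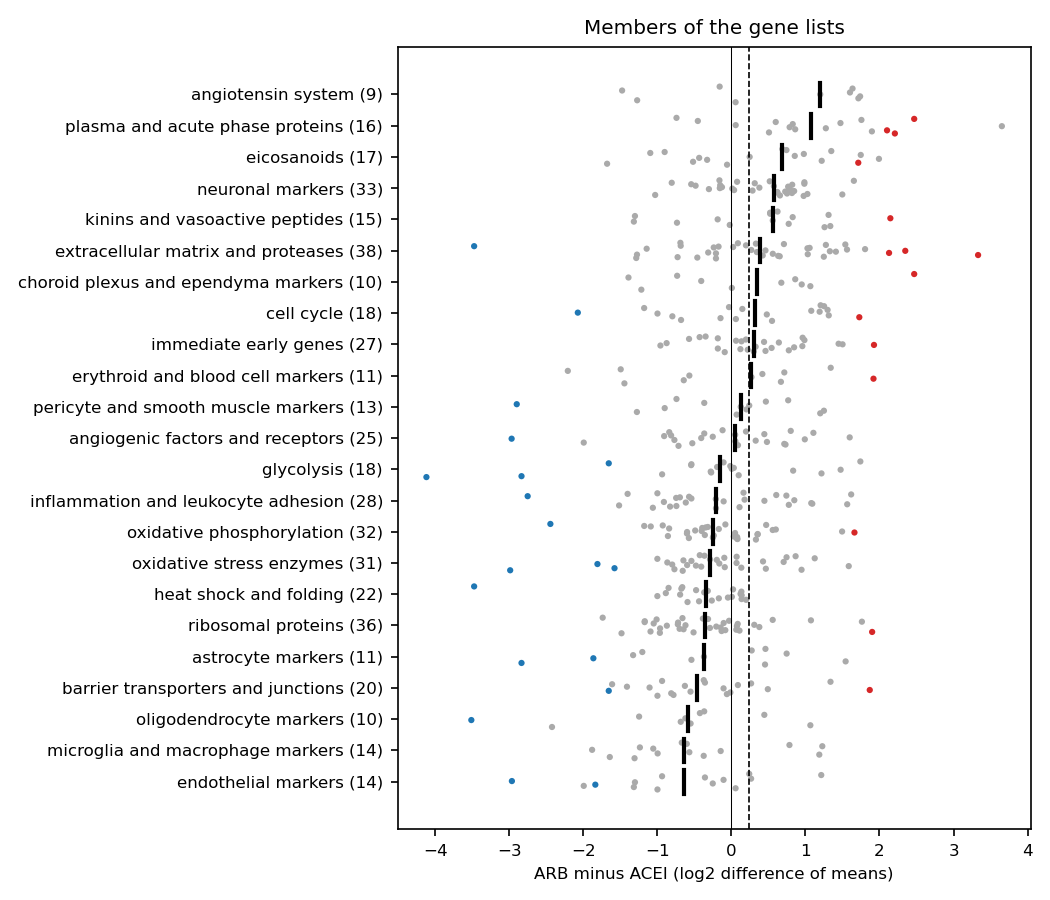
ARB minus ACEI differences (log2) of the measured members of 23 gene lists, with called genes in red (higher) or blue (lower), a black bar at each list's median and a dashed line at the median of all genes, 0.24. The list medians run from 1.20 for the angiotensin system to -0.65 for the endothelial markers. Several higher members of the angiotensin list passed the filter through the ARB arrays. Most members of every list were not called.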

How the data were processed

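Brain capillary RNA of 6 samples was measured on RG_U34A arrays. The values are the authors' deposited linear intensity per probe set, and the software, scaling and background correction behind them are not given in the sources used here. Array numbers were read from the titles, with the unnumbered ACEI and control arrays as number 1. Intensities were used as log2(intensity + 90) with no further scaling, where 90 is the median of the table divided by 4. Probe sets in the lowest 40% by their mean over the 4 arrays (3496) were left out. ARB was tested against ACEI on 4 arrays with limma 3.58.1 (R 4.3.3; lmFit, eBayes, two-sided, 2 residual and 4.87 prior degrees of freedom), with Benjamini-Hochberg adjustment over 5244 probe sets and a threshold of 0.05. All adjusted p-values are limma's, and the 95% intervals use its standard errors. The scripts were tested on simulated data. The number of arrays limits the precision.

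Genes were named from the platform annotation (1 symbol for 7006 of 8740 probe sets, several for 308, none for 1426) and read from the probe set with the highest mean. Named were the 12 genes with the largest called difference in each direction, a fixed set of vascular genes, and up to 4 genes per list with the largest difference. Up to 8 called genes per direction with controls within 2-fold were added after seeing the data. The members and lists were chosen with earlier results of these data known. Replicate numbers were checked as pairs, and the deviations of same-numbered arrays correlated at -0.006, so the numbers were not taken to pair the arrays. Alternatives were the offset, the filter, the normalization, a replicate block, all 6 arrays, the later run day, the variance prior and leaving out each array. CG content of promoter windows was tried for the called genes and then for genes apart by 2-fold. In both, too few of the higher genes had a window, so the check was void and is not reported.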

Additional observations from a re-analysis of the deposited data

Results flagged for a closer look

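Some kinds of control probe set, which entered no comparison between the drugs, read above both control arrays on the ARB arrays. Others did not. The 3' probe set of Gapdh read 7050 and 6370 with ARB, below both controls at 14619 and 7813. The 3' probe set of Actb lay between the controls. The median of the added bacterial controls was 7525 on ARB 1 and 5387 on ARB 2, against 1290 and 3274 on the controls and 1841 and 1012 on the ACEI arrays. The median of the probe sets for foreign transcripts was 105.6 on ARB 1 and 86.6 on ARB 2. It was 19.9 and 23.3 on the controls and 28.6 and 18.4 on the ACEI arrays. The median of the antisense controls was 522 on ARB 1 and 326 on ARB 2, against 187 and 213 on the controls and 175 and 136 on the ACEI arrays. The 5S ribosomal RNA probe set read 5813 on ARB 1 and 5451 on ARB 2, against 106 and 1880 on the controls and 455 and 919 with ACEI. Over all gene probe sets, the median was 354 and 246 with ACEI, 487 and 496 with ARB and 319 and 259 on the controls. The part of these levels in the drug differences was not tested.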

How the results depend on the processing

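Against 493 calls, limma gave 247 with an offset of 16, 929 with the median as offset, 207 without a filter, 296 with 60% of probe sets left out, 756 with median centring, 797 with an intensity trend and 767 with a replicate block. It gave 0 with all 6 arrays, on the later run day and without moderation, and 0 to 149 with 1 array left out. Quantile normalization (372) and cyclic loess (338) stayed within 1.5 times of the main count. Both groups apart by at least 2-fold were 1861 probe sets (35.5%), 1121 with the median as offset, 2835 without a filter and 1050 with the stricter filter. Every called gene named here lost its call with all 6 arrays (55 genes), and 13 lost it after quantile normalization.

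Signs turned for genes near 0. Median centring gave -0.53 for Ace, -0.35 for Vwf, -0.52 for Acta2 and -0.48 for Ccl2. Quantile normalization gave -0.36 for Vwf and -0.30 for Ccl2, and cyclic loess -0.42 for Vwf, -0.39 for Ccl2 and 0.01 for Icam1. The later run day gave 0.12 for Alox15 and -0.57 for Ccl2. With 1 array left out, the range was -0.58 to 0.69 for Ace, -0.08 to 0.56 for Vwf, -0.33 to 0.12 for Slc2a1, -0.14 to 0.28 for Acta2, -0.61 to 0.49 for Alox15, -0.43 to 0.22 for Icam1, -0.57 to 0.79 for Ccl2, -0.48 to 0.15 for Hmox1 and -3.48 to 0.44 for Ccl5. The replicate block kept the sign for all 120 named genes, but in this balanced layout it cannot change a difference, so this was fixed in advance. The cause of the sign changes was not tested. Low signal limits the folds of dim probe sets.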
